A study of Mus musculus with 23 samples.

Results

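Hif3a and 8 further genes of the hypoxia response, Hif1a, Egln3, Vegfa, Adm, Bnip3, Ankrd37, Pfkfb3 and Ndrg1, were picked by symbol, and all 9 were found among the 27179 genes of the count table. In livers of ABpIF/+ mice Hif3a and Bnip3 rose and Egln3 fell against Ctrl, with mean Hif3a going from 0.129 to 1.58 CPM (a gene's counts scaled to a library of fixed size), mean Bnip3 from 209 to 599 CPM and mean Egln3 from 16.7 to 6.46 CPM. In ABpIF/F livers Egln3 fell by a like amount, to 6.23 CPM, while Hif3a was at 0.102 CPM and Bnip3 at 124 CPM. Ndrg1 had its highest level in ABpIF/F livers, at 37.3 CPM against 5.52 CPM in ABpIF/+ livers. Hif1a, Vegfa, Adm, Ankrd37 and Pfkfb3 passed the test in none of the 3 comparisons.

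Hypoxia-inducible factors (HIFs) are transcription factors made of an alpha subunit, encoded by Hif1a, Epas1 or Hif3a, and a beta subunit, encoded mainly by Arnt. When oxygen is plentiful, prolyl hydroxylases encoded by the Egln genes modify the alpha subunits, the Vhl protein binds the modified form and the proteasome destroys it. When oxygen runs low the alpha subunit builds up and the pair binds DNA at hypoxia response elements, so that HIF activity is set largely at the level of protein, which mRNA counts do not measure. Forms of Hif3a that lack a transactivation domain can hold back the other alpha subunits, and the counts used here do not tell isoforms apart. In liver the oxygen supply falls from the portal to the central side of the lobule, and HIF targets there include genes of glycolysis, vessel growth, iron handling and mitochondrial turnover.

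All mice carried Alb-Cre, which drives Cre recombinase from the albumin promoter in hepatocytes, and Trp53 flx/flx, so every group, Ctrl included, had lost Trp53 in those cells. Ctrl mice (n = 6) had wild-type Braf and Icmt flx/+. ABpIF/+ mice (n = 6) had in addition the BrafCA/+ allele, which Cre turns into an oncogenic form, with Icmt flx/+. ABpIF/F mice (n = 3) had BrafCA/+ with Icmt flx/flx, so that Cre targets both copies of Icmt in those cells, the gene of an enzyme that methylates prenylated proteins. The study does not exclude that the deletion of Icmt was incomplete. The genotype labels write BRAF wt for Ctrl and BRAF +/+ for the mutant groups, while the design text gives BrafCA/+ for the latter. RNA came from liver tissue without visible tumours, and all mice were female. The study describes ABpIF/F mice of differing ages without tying an age to a sequenced mouse, and the labels used here give neither the age of each mouse nor the hour of sampling.

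The libraries held 24742910 to 32262649 gene counts per mouse. Icmt, the targeted gene, was at 27.8 to 34.7 CPM in Ctrl, 27.8 to 37.4 CPM in ABpIF/+ and 15.2 to 16.6 CPM in ABpIF/F mice. The summed level of 8 hepatocyte markers, albumin among them, was 100962 to 133933 CPM in Ctrl, 175550 to 240407 CPM in ABpIF/+ and 121775 to 215460 CPM in ABpIF/F mice, as in liver. Albumin alone averaged 89159 CPM in Ctrl, 153783 CPM in ABpIF/+ and 144110 CPM in ABpIF/F mice, so it made up most of these sums. By the test described below, 2 of the 8 markers rose and 1 fell in ABpIF/+ vs Ctrl. In ABpIF/F vs Ctrl 1 rose and 2 fell. All 7 stellate and fibroblast markers, collagen genes among them, fell in ABpIF/+ against Ctrl, with sums of 39.9 to 85.3 CPM against 171 to 236 CPM, and the ABpIF/F sums were 154 to 263 CPM. These mRNA sums run against the study's tissue stain for collagen, which was raised around portal areas in ABpIF/+ livers and lower in ABpIF/F livers. The cause of that contrast was not tested. In whole tissue, fewer cells of a type and less RNA per cell cannot be told apart. The first principal component of 15 circadian clock genes, which has no unit, was 0.57 to 0.76 in the ABpIF/+ mice, 0.25 to 0.59 in 5 Ctrl mice, -1.66 in Ctrl replicate 1 and -2.04 to -1.09 in the ABpIF/F mice. Ctrl replicate 2 carried the strain label of the mutant groups and the 5 other Ctrl mice another, so strain label and Braf genotype can be told apart only by that mouse.

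The start sites of the genes that passed the test are shown because HIF binding sites hold a short core, ACGTG or GCGTG. The windows, from RefSeq on build GRCm38.p6, run from 250 bases before the start to 50 after it and read 5′ to 3′ on the gene's strand, and capitals mark either core on either strand. They were given for 8 of the 9 genes, Hif3a at chr7:17062378-17062677, Bnip3 at chr7:138909457-138909756 and Egln3 at chr12:54203825-54204124, all 3 on the minus strand. Ndrg1 had none.
Hif3a: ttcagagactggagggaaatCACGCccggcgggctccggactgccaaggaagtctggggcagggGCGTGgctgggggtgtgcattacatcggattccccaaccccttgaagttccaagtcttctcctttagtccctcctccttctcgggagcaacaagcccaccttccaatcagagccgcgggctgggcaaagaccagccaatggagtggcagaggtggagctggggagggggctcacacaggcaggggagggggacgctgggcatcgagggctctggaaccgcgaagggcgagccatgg
Bnip3: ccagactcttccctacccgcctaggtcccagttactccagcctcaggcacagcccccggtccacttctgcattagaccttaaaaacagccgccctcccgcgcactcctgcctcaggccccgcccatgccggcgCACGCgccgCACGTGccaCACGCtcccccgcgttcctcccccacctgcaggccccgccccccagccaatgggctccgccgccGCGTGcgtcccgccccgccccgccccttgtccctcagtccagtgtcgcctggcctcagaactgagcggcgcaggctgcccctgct
Egln3: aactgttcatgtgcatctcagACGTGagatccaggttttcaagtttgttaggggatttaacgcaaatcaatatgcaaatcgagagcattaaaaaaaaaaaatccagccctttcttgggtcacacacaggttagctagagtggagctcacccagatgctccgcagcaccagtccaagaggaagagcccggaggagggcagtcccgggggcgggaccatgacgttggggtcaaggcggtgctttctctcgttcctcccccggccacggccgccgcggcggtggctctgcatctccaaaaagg
The Hif3a window held 2 GCGTG cores, at positions -230 and -186 from the start. The Bnip3 window held 5 matches, of which 3 were GCGTG at positions -117, -99 and -35, and the other 2 were ACGTG read on both strands of one CACGTG. The Egln3 window held 1 ACGTG at position -229. Of the others, the Hif1a window held 3 matches, 2 of them in one CACGTG, that of Ankrd37 held 4 and that of Adm held 2. Pfkfb3 and Vegfa each had 2 windows, with 1 and 4 matches for Pfkfb3, of which 2 lay in one CACGTG, and 0 and 2 for Vegfa. Among all 32851 RefSeq windows of the same length 43.8% held at least 1 core, 20.6% at least 2, 8.93% at least 3, and 7.15% held CACGTG, so cores were common at genes at large. A match is a run of letters and says nothing of binding.

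Levels are CPM after TMM scaling, and a gene was called when edgeR's quasi-likelihood test gave a Benjamini-Hochberg adjusted p under 0.01 over all genes and its log2 fold change was 1 or more in either direction, which is 2-fold. In ABpIF/+ vs Ctrl 2 of the 9 genes were called up and 1 down. Of all genes tested 4.69% were called up and 5.35% down, and of the 12316 genes whose mean reached 1 CPM, to which all of the 9 but Hif3a and Ankrd37 belong, 17.6% were called either way. The shares of all genes include genes that could not be called, as 20380 of the 27179 genes had a read. In ABpIF/F vs Ctrl 0 of the 9 were called up and 1 down, where all genes had 4.55% up and 2.38% down, or 12.6% either way from 1 CPM. By DESeq2 that count was 2, with Ndrg1 called up. In ABpIF/+ vs ABpIF/F 2 were called up and 1 down, against 1.76% up and 5.49% down among all genes and 12.2% either way from 1 CPM. The median log2 fold change of the 9 was 0.47, -0.33 and 0.32 in these comparisons, and that of the genes from 1 CPM was 0.02, -0.00077 and 0.04. The comparisons share mice, so they do not stand as separate evidence.

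**Figure D1:**
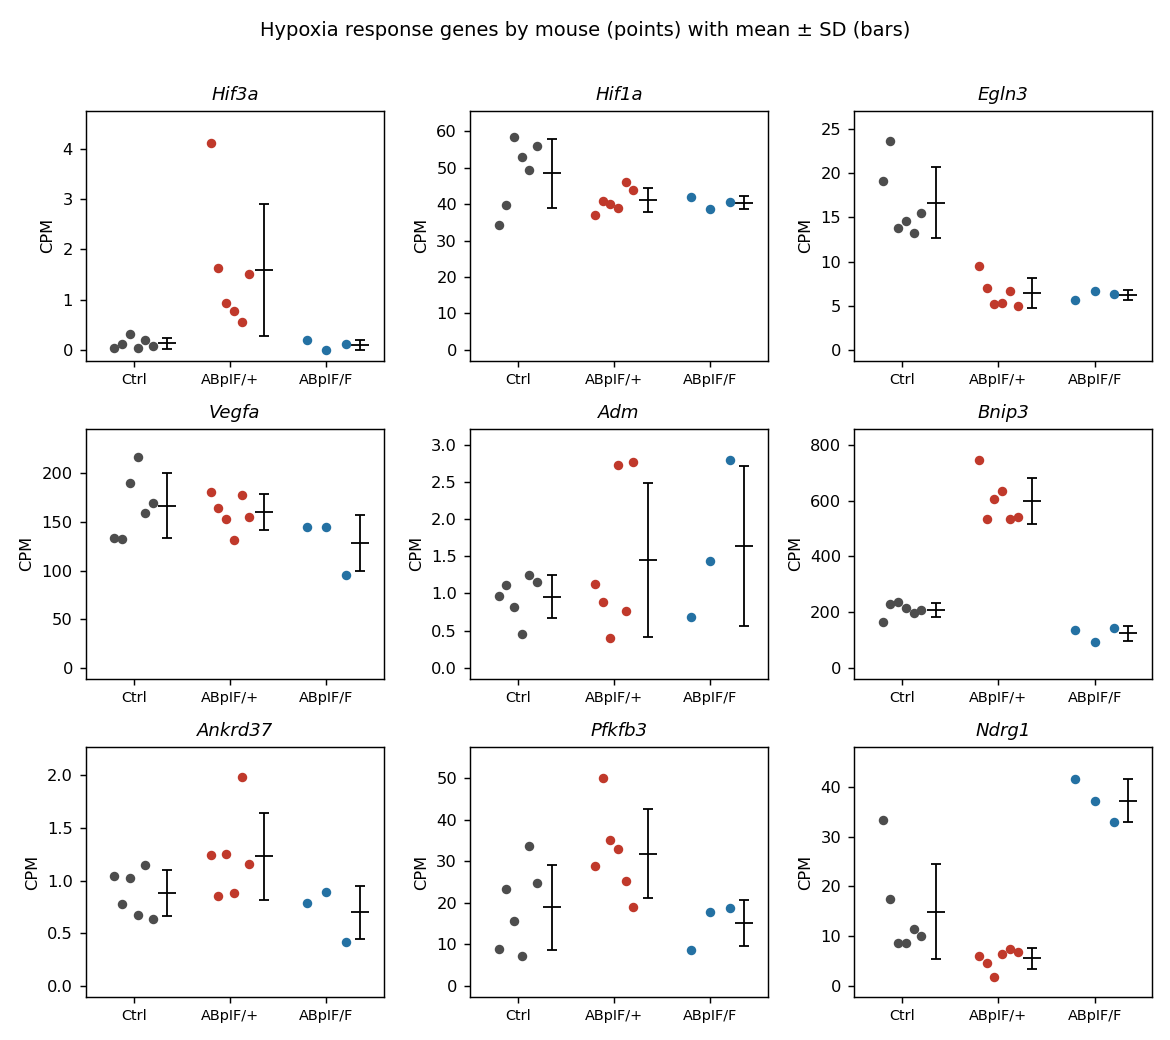
Level of each of the 9 genes in CPM after TMM scaling (y axis, each panel with its own scale from 0) in the 3 groups (x axis). Each point is 1 mouse and the bar beside it is the mean ± SD. Bnip3 separates the 3 groups, Hif3a is high in ABpIF/+ mice, Egln3 is high in Ctrl mice, and 1 Ctrl mouse at 33.3 CPM of Ndrg1 sits with the ABpIF/F mice.

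**Figure D2:**
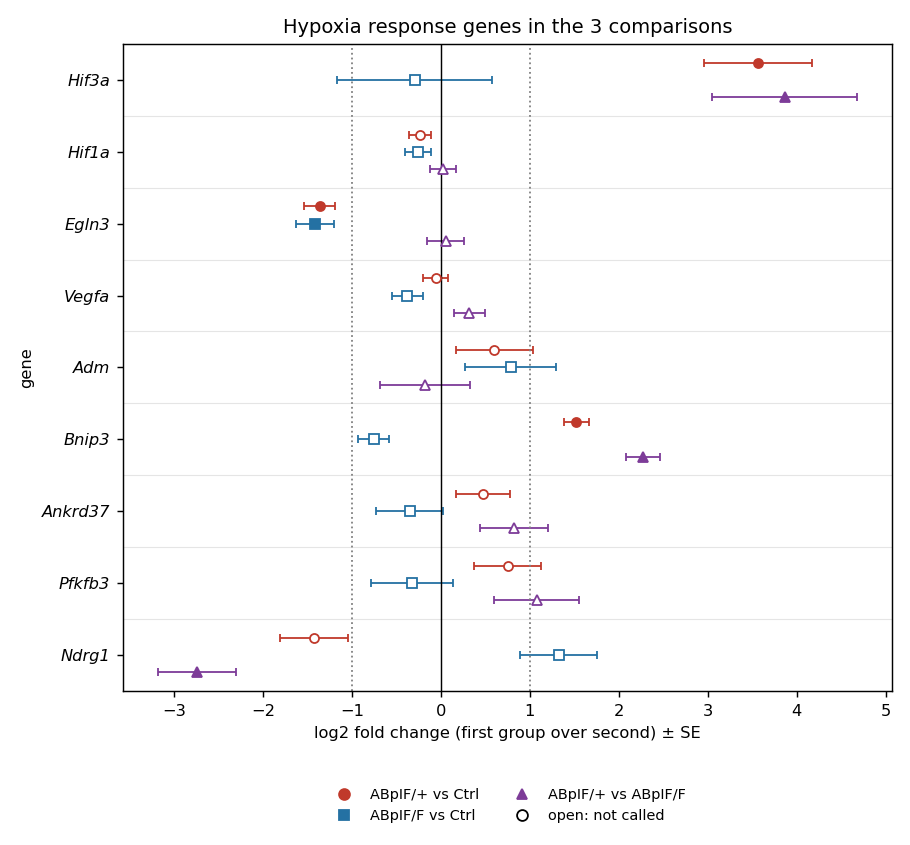
Log2 fold change of each gene (x axis, first group over second, ± SE) in the 3 comparisons (colours and shapes), with filled symbols for called genes and dotted lines at the 2-fold threshold. Hif3a and Bnip3 lie right of the threshold in ABpIF/+ vs Ctrl and vs ABpIF/F, Egln3 left of it in both comparisons with Ctrl, and Ndrg1 has the lowest value, -2.75, in ABpIF/+ vs ABpIF/F.

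Hif3a (Entrez 53417, chromosome 7, 17031507 to 17062427 of GRCm38, minus strand) encodes the third alpha subunit and per kilobase of exon had the lowest level of the 9 in each group. Ctrl mice had between 0.032 and 0.318 CPM with a median of 0.0988, which is 1 to 9 counts per mouse. The ABpIF/+ mice ranged from 0.544 to 4.11 CPM with a median of 1.21, or 17 to 109 counts. ABpIF/F replicates 1 to 3 had 0.196, 0 and 0.111 CPM, or 6, 0 and 4 counts. Every ABpIF/+ mouse was above every mouse of the other groups, and Ctrl and ABpIF/F mice overlapped throughout. The log2 fold change was 3.57 (SE 0.61, edgeR adjusted p = 9.89e-05) in ABpIF/+ vs Ctrl, an 11.8-fold difference, and 3.86 (SE 0.82, edgeR adjusted p = 0.00185) in ABpIF/+ vs ABpIF/F. In ABpIF/F vs Ctrl it was -0.30, with an interval of 2 SE from -2.04 to 1.45, too wide at these counts to show a difference or its absence. 4833404L02Rik lies on the opposite strand within Hif3a. As the strand setting of the counting was not stated, part of the counts could come from it.

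The level of Hif3a differed among ABpIF/+ mice more than that of Bnip3, with an SD of 1.31 CPM on a mean of 1.58. Replicate 1 had 4.11 CPM and the 5 other mice at most 1.62. That mouse also had the highest summed level of 11 glucocorticoid response genes, 10379 CPM against 4555 to 6777 CPM in the other ABpIF/+ mice. The gene Tat alone gave 7793 CPM of its sum. In this list, which includes the hormone-induced genes Fkbp5 and Per1, 6 genes rose in ABpIF/+ vs Ctrl and 0 fell, with a median log2 fold change of 1.61, and 5 were higher and 0 lower in ABpIF/+ vs ABpIF/F. All 11 reached a mean of 1 CPM, and of all genes from that level 17.6% and 12.2% were called either way in these comparisons. The 6 became 0 with the strain label in the model and the 5 became 1 with the clock component. Per1 is also 1 of the 15 clock genes behind the clock component. Tsc22d3, another gene of the glucocorticoid list, went the other way against Ctrl. Its means were 114 CPM in Ctrl, 80.4 CPM in ABpIF/+ and 37.4 CPM in ABpIF/F livers. The part of the glucocorticoid list in the Hif3a result was not tested. Without replicate 1 the log2 fold change of Hif3a in ABpIF/+ vs Ctrl was 3.01 and it stayed called.

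Ctrl replicate 2, which shares the strain label of the mutants, had 0.123 CPM of Hif3a, within the range of the other Ctrl mice. With the strain label in the model, where Ctrl rests on that mouse, the ABpIF/+ vs Ctrl difference was 3.63 on the log2 scale (edgeR adjusted p = 0.115) and no longer called. The ABpIF/+ vs ABpIF/F difference was no longer called without ABpIF/F replicate 2 (edgeR adjusted p = 0.0120), without ABpIF/F replicate 3 (0.0154), or with the clock score, the mean z score of the clock genes, as a covariate, where it was 2.01 (0.493). The SE of that last value was 1.39. With the clock component as a covariate the difference was 0.60 (SE 3.77) and not called, too imprecise to show a difference or its absence. The clock component does not overlap between ABpIF/+ and ABpIF/F mice, so within these 2 groups genotype and clock state cannot be told apart.

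The genes whose profiles over the 15 mice lay nearest to that of Hif3a, by the root-mean-square difference of log2 CPM centred on each gene's mean, were Phf11c (0.64), Eif4ebp3 (0.69), Setdb2 (0.70), Slc19a1 (0.83) and Sik1 (0.83), among 12316 genes from 1 CPM. Phf11c went from 5.03 CPM in Ctrl to 45.3 CPM in ABpIF/+ and 4.12 CPM in ABpIF/F livers on average, and Setdb2 from 11.1 to 68.6 and 10.8 CPM. When the profiles were scaled to unit variance the 5 nearest were Exoc5, Sox12, Tmem82, Phf11c and Rdh13, and Phf11c was in both sets. This is a description of 15 mice whose group differences shape every such profile, without a test.

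Hif1a (Entrez 15251, chromosome 12, 73901375 to 73947530, plus strand), the alpha subunit first known for the response to low oxygen, was not called in any comparison. It ranged from 34.4 to 58.5 CPM with a median of 51.1 in Ctrl and from 37.0 to 46.2 CPM with a median of 40.5 in ABpIF/+ mice. The ABpIF/F replicates had 42.1, 38.7 and 40.6 CPM. Ctrl mice spread more widely than the others and overlapped both mutant groups. Its log2 fold change was -0.24 in ABpIF/+ vs Ctrl (2 SE interval -0.47 to 0.00) and -0.26 in ABpIF/F vs Ctrl (-0.56 to 0.03). In ABpIF/+ vs ABpIF/F it was 0.03 (-0.27 to 0.32). The 3 intervals lie inside the 2-fold threshold. With the strain label in the model both differences from Ctrl turned to the other sign, at 0.05 and 0.02, and again no comparison was called. Gm49321 on the same strand and the antisense gene Gm15283 overlap Hif1a, and the strand setting of the counting was not stated.

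Per kilobase of exon, the scale on which genes can be set side by side, Epas1 and not Hif1a was the most abundant alpha subunit. In Ctrl livers Epas1 had 34.9 ± 6.43 CPM per kilobase (SD, n = 6), Hif1a 8.22 ± 1.61 and Hif3a 0.0192 ± 0.0163. In ABpIF/+ livers the levels were 106 ± 11.0 for Epas1, 6.99 ± 0.565 for Hif1a and 0.236 ± 0.195 for Hif3a (SD, n = 6). In ABpIF/F livers they were 48.1 ± 8.41, 6.86 ± 0.287 and 0.0152 ± 0.0146 (SD, n = 3). So even after its rise Hif3a was the rarest of the 3 alpha subunits in every group. Arnt, the main beta subunit, had 5.27 ± 1.05 in Ctrl, 6.34 ± 0.791 in ABpIF/+ and 5.83 ± 0.217 CPM per kilobase in ABpIF/F livers.

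Epas1, which encodes the HIF-2 alpha subunit, rose in ABpIF/+ livers. Ctrl mice had 139 to 228 CPM with a median of 205, ABpIF/+ mice 523 to 681 CPM with a median of 584, and the ABpIF/F replicates 232, 322 and 253 CPM. No ABpIF/+ mouse overlapped another group, and the ABpIF/F mice lay just above the Ctrl mice. Its log2 fold change was 1.60 in ABpIF/+ vs Ctrl (SE 0.14, edgeR adjusted p = 1.58e-08), 1.13 in ABpIF/+ vs ABpIF/F (SE 0.18, adjusted p = 0.000125) and 0.46 in ABpIF/F vs Ctrl (SE 0.17, adjusted p = 0.0616). The ABpIF/+ vs ABpIF/F difference of Epas1 was no longer called with the clock score as a covariate, at 0.95 (edgeR adjusted p = 0.0476), or with the clock component, at 0.72 (adjusted p = 0.234), while that in ABpIF/+ vs Ctrl stayed called with the component. Endothelial cells also express Epas1, and 2 of 7 endothelial markers fell in ABpIF/+ vs Ctrl, with sums of 88.2 to 189 CPM against 180 to 264 CPM in Ctrl. Their part in the Epas1 values was not tested.

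Egln3 (Entrez 112407, chromosome 12, 54178981 to 54203860, minus strand), a prolyl hydroxylase gene that HIF itself induces, fell in both mutant groups. Ctrl mice had 13.2 to 23.7 CPM with a median of 15.1, and ABpIF/+ mice 5.01 to 9.47 CPM with a median of 6.00. ABpIF/F replicates had 5.65, 6.68 and 6.37 CPM. All 9 mutant mice were below all 6 Ctrl mice. The log2 fold change was -1.36 in ABpIF/+ vs Ctrl (SE 0.17, edgeR adjusted p = 1.89e-06) and -1.42 in ABpIF/F vs Ctrl (SE 0.22, adjusted p = 5.96e-05). Between the mutant groups it was 0.05, with a 2 SE interval from -0.37 to 0.47. Ctrl replicate 2, with the mutants' strain label, had the highest level of all, and with that label in the model the differences from Ctrl were -1.87 (adjusted p = 2.42e-05) and -1.92 (adjusted p = 0.000150).

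Neither of the other prolyl hydroxylases was called down in a comparison. Egln1, the main oxygen sensor of the family, was at 29.5 CPM in Ctrl, 31.5 CPM in ABpIF/+ and 25.9 CPM in ABpIF/F livers on average and was not called. Egln2 had 56.5 to 85.1 CPM in Ctrl, 98.4 to 155 CPM in ABpIF/+ and 47.6 to 64.4 CPM in ABpIF/F mice. ABpIF/+ mice were above all others in Egln2, which was called up in ABpIF/+ vs ABpIF/F (log2 fold change 1.05, SE 0.17, edgeR adjusted p = 0.000156). That call was lost with the clock component as a covariate, where the difference of Egln2 was 1.30 (edgeR adjusted p = 0.0220), and the difference dropped under the fold threshold without ABpIF/+ replicate 1, at 0.97, or without ABpIF/F replicate 3, at 0.93. In ABpIF/+ vs Ctrl its change of 0.84 (SE 0.13, edgeR adjusted p = 4.22e-05) stayed under the fold threshold. Per kilobase of exon Egln2 was the most abundant hydroxylase in each group, at 24.1 ± 3.91 in Ctrl, 43.1 ± 7.71 in ABpIF/+ (SD, n = 6 each) and 20.8 ± 3.31 in ABpIF/F livers (SD, n = 3), against 6.26 ± 1.51, 2.43 ± 0.634 and 2.34 ± 0.200 for Egln3.

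In the HIF pathway list of 17 genes, which holds the subunits, hydroxylases, the Vhl ubiquitin ligase and the coactivators with Hif1a, Hif3a and Egln3 among them, 3 were called up and 1 down in ABpIF/+ vs Ctrl, 1 up and 1 down in ABpIF/F vs Ctrl, and 3 up and 0 down in ABpIF/+ vs ABpIF/F. Of the 17 genes 15 reached a mean of 1 CPM, and of all genes from that level 17.6%, 12.6% and 12.2% were called in these comparisons. The 3 genes called in ABpIF/+ vs ABpIF/F, Epas1, Hif3a and Egln2, became 1 without ABpIF/F replicate 3, 1 with the clock score as a covariate and 0 with the clock component. In ABpIF/F vs Ctrl 1 gene, Egln3, was called with the clock component. The median log2 fold changes of the list were 0.15, -0.16 and 0.12. Arnt2, a beta subunit best known from brain, was called against Ctrl in both mutant groups, with 0 to 5 counts per Ctrl mouse, 3 to 30 per ABpIF/+ mouse and 14, 77 and 206 in the ABpIF/F replicates. Neither call of Arnt2 was kept with the strain label in the model (edgeR adjusted p = 0.121 and 0.0264), nor that in ABpIF/+ vs Ctrl with the clock score (0.0103) or that in ABpIF/F vs Ctrl with the clock component (0.0471). Vhl and Hif1an, the factor that inhibits Hif1a by hydroxylation of asparagine, were not called in any comparison, with log2 fold changes between -0.14 and 0.21.

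**Figure D3:**
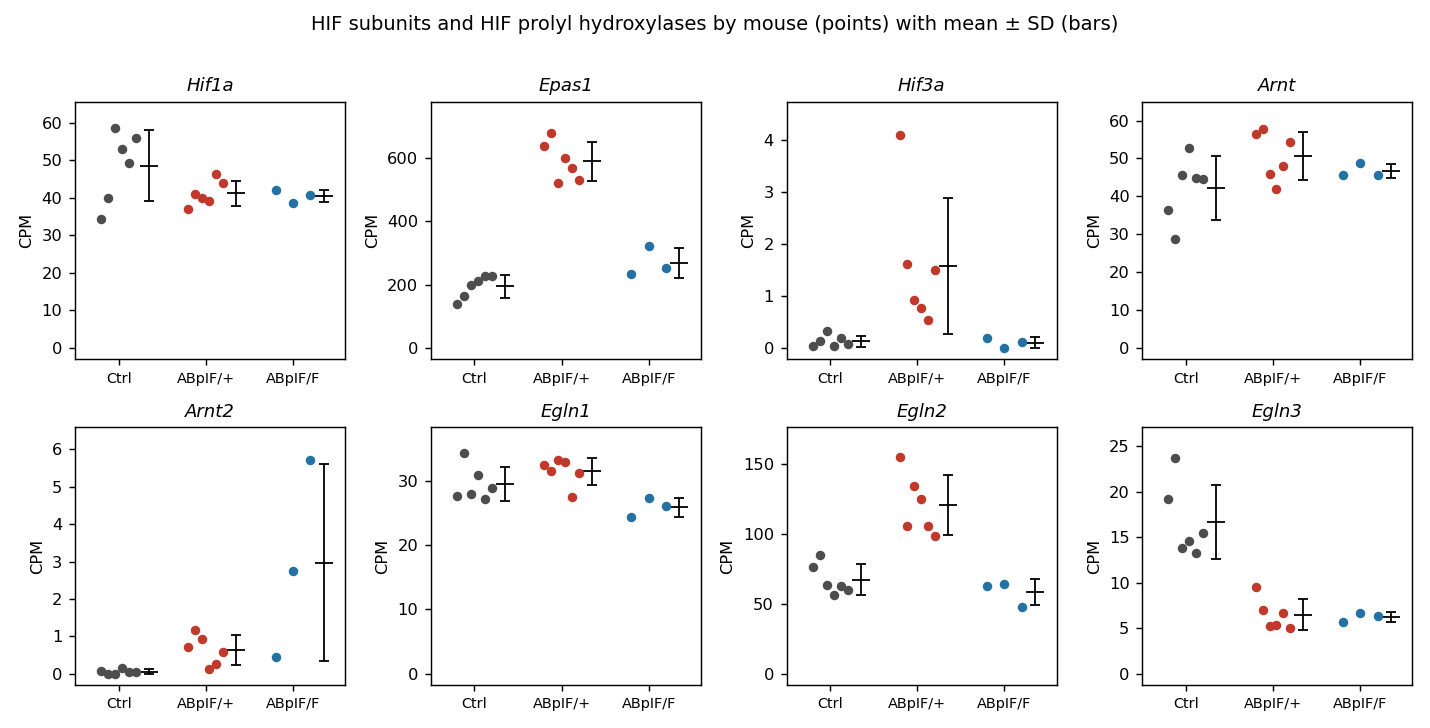
Level of the HIF subunit and prolyl hydroxylase genes in CPM after TMM scaling (y axis, scales differ and start at 0) in the 3 groups (x axis), with 1 point per mouse and the mean ± SD beside them. Epas1, Hif3a and Egln2 are highest in ABpIF/+ mice, Egln3 is highest in Ctrl mice, and Arnt2 in the ABpIF/F mice runs from 0.457 to 5.71 CPM.

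Bnip3 (Entrez 12176, chromosome 7, 138890836 to 138909519, minus strand) encodes a receptor on mitochondria that marks them for removal by autophagy and is a long-known HIF target. Ctrl mice had 164 to 238 CPM with a median of 212, and ABpIF/+ mice 532 to 746 CPM with a median of 573. ABpIF/F replicates had 136, 91.7 and 143 CPM. The 3 groups did not overlap, with ABpIF/+ above Ctrl and Ctrl above ABpIF/F. The log2 fold change was 1.52 in ABpIF/+ vs Ctrl (SE 0.14, edgeR adjusted p = 2.52e-08) and 2.28 in ABpIF/+ vs ABpIF/F (SE 0.19, adjusted p = 1.37e-07), a 4.84-fold difference. In ABpIF/F vs Ctrl it was -0.75 (SE 0.17, edgeR adjusted p = 0.00329), short of the 2-fold threshold. Both calls were kept in every alternative run, with log2 fold changes in ABpIF/+ vs Ctrl of 1.38 to 1.56, and in ABpIF/+ vs ABpIF/F of 1.75 to 2.39. Ctrl replicate 2 had 227 CPM, within the range of the other Ctrl mice. Gm45507 and the pseudogene Gm18258 lie on the opposite strand within Bnip3.

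Of the 8 genes of the mitophagy receptor list, Bnip3 was the 1 called in ABpIF/+ vs Ctrl and in ABpIF/+ vs ABpIF/F. Its closest relative Bnip3l had a log2 fold change of 0.39 in ABpIF/+ vs Ctrl (edgeR adjusted p = 0.00461) and 0.65 in ABpIF/+ vs ABpIF/F (adjusted p = 0.000720), both under the fold threshold. The median of the list was 0.27, -0.47 and 0.64 on the log2 scale in the 3 comparisons.

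Ndrg1 (Entrez 17988, chromosome 15, 66929318 to 66969640, minus strand), an intracellular protein induced by low oxygen and other stress, had group means in the reverse order. Ctrl mice had 8.65 to 33.3 CPM with a median of 10.7, and ABpIF/+ mice 1.81 to 7.48 CPM with a median of 6.20. ABpIF/F replicates had 41.6, 37.2 and 33.0 CPM. All ABpIF/+ mice were below all Ctrl mice, and the ABpIF/F mice were above all Ctrl mice but replicate 1, which at 33.3 CPM lay among them. The log2 fold change in ABpIF/+ vs ABpIF/F was -2.75 (SE 0.44, edgeR adjusted p = 0.000649), 6.72-fold lower in ABpIF/+ livers. It was -1.43 in ABpIF/+ vs Ctrl (SE 0.38, edgeR adjusted p = 0.0130) and 1.32 in ABpIF/F vs Ctrl (SE 0.43, adjusted p = 0.0518), neither of them called.

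Those 2 values lay close to the threshold. Without Ctrl replicate 1 the ABpIF/F vs Ctrl difference was 1.73 (edgeR adjusted p = 0.00111) and called, as it was by DESeq2 with all mice (adjusted p = 0.00473). The ABpIF/+ vs Ctrl difference was called by DESeq2 (adjusted p = 6.44e-05), by edgeR on genes passing filterByExpr (adjusted p = 0.00386) and by edgeR without robust estimation (adjusted p = 0.00162). Ctrl replicate 1 also stood with the ABpIF/F mice in the clock component, at -1.66 against 0.25 or more in the other Ctrl mice. With the clock score as a covariate the ABpIF/+ vs ABpIF/F difference of Ndrg1 was -1.79 (edgeR adjusted p = 0.0595), and with the clock component it was -1.24 (adjusted p = 0.286), no longer called. The clock component does not overlap between these groups, so genotype and clock state cannot be told apart there. The part of the clock in the Ndrg1 values was not tested. Of the 4 NDRG genes, Ndrg2 fell in both mutant groups against Ctrl, by 1.13 and by 1.61 on the log2 scale, where Ndrg1 had values of -1.43 and 1.32.

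**Figure D4:**
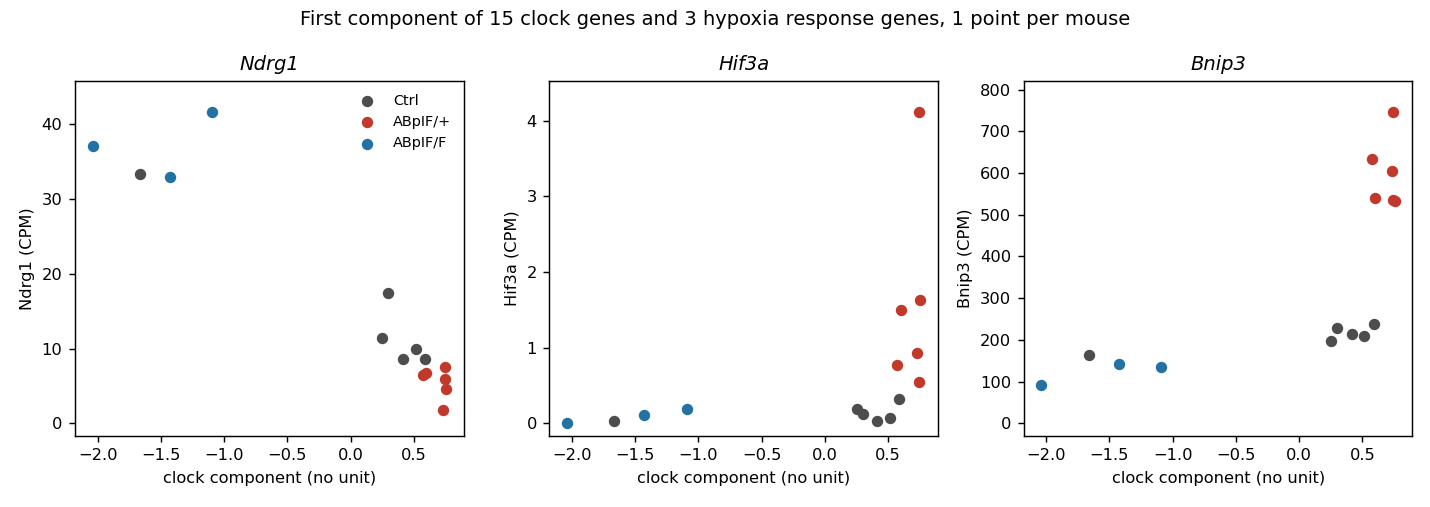
Levels of Ndrg1, Hif3a and Bnip3 in CPM (y axis, from 0) against the first principal component of 15 clock genes (x axis, no unit), with 1 point per mouse and colours for the groups. Ctrl replicate 1 lies at -1.66 with the ABpIF/F mice, where Ndrg1 is high. The other Ctrl mice lie at 0.25 to 0.59 and the ABpIF/+ mice at 0.57 to 0.76, so these groups barely overlap on this axis. They differ in Hif3a, Bnip3 and Ndrg1, with Ndrg1 at 8.65 to 17.4 CPM in these Ctrl mice and 1.81 to 7.48 CPM in ABpIF/+ mice. The part of the clock in these differences was not tested.

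Vegfa (Entrez 22339, chromosome 17, 46016993 to 46032369, minus strand) encodes the main growth factor of vessels and was not called in any comparison. It had 132 to 217 CPM with a median of 164 in Ctrl, 131 to 181 CPM with a median of 159.9 in ABpIF/+ mice, and 145, 145 and 95.5 CPM in the ABpIF/F replicates. Only ABpIF/F replicate 3 lay below the range of the other mice. Its log2 fold change was -0.06 in ABpIF/+ vs Ctrl (2 SE interval -0.34 to 0.22) and -0.38 in ABpIF/F vs Ctrl (-0.73 to -0.02, edgeR adjusted p = 0.172). Of the 10 genes of the VEGF family and its receptors, Nrp1 and Nrp2, coreceptors also found on stellate and endothelial cells, fell in ABpIF/+ vs Ctrl by 2.11 and 1.81 on the log2 scale, Nrp2 fell by 1.60 in ABpIF/F vs Ctrl, and 0 rose in any comparison. Nrp1 and Flt4, the receptor of lymphatic and sinusoidal endothelium, were lower in ABpIF/+ than in ABpIF/F livers, by -1.37 and -1.14. These moved beside the stellate and endothelial marker sums given above, and the part of those markers in the result was not tested. Of the 10 genes 9 reached a mean of 1 CPM. From that level 17.6% of all genes were called in ABpIF/+ vs Ctrl, 12.6% in ABpIF/F vs Ctrl and 12.2% in ABpIF/+ vs ABpIF/F.

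Adm (Entrez 11535, chromosome 7, 110627661 to 110629820, plus strand), the gene of the vasodilator peptide adrenomedullin, was low and variable. Ctrl mice had 0.449 to 1.24 CPM with a median of 1.04, and ABpIF/+ mice 0.403 to 2.76 CPM with a median of 1.01, of which replicates 4 and 6 were at 2.73 and 2.76 and the other 4 at 1.13 or less. ABpIF/F replicates had 0.685, 1.43 and 2.80 CPM. The groups overlapped, and with 10 to 101 counts per mouse the log2 fold changes of 0.60 (SE 0.43) and 0.78 (SE 0.51) against Ctrl were not told from 0 (edgeR adjusted p = 0.390 and 0.381). Of the 6 genes of the system, the receptor gene Calcrl fell in ABpIF/+ vs Ctrl, by 1.37 on the log2 scale (edgeR adjusted p = 0.00232). Adm2, which encodes a related peptide, had 0 counts in all 6 Ctrl mice, 6 to 39 counts in ABpIF/+ and 8 to 24 in ABpIF/F mice. Set against a floor of 3 counts per library it was at least 7.58-fold higher in ABpIF/+ and at least 4.44-fold higher in ABpIF/F livers, a bound that covers counting error only.

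Pfkfb3 (Entrez 170768, chromosome 2, 11471433 to 11554077, minus strand), one of 4 enzymes that set the level of fructose 2,6-bisphosphate and so the pace of glycolysis, was not called either. It had 7.22 to 33.6 CPM with a median of 19.5 in Ctrl and 19.0 to 50.1 CPM with a median of 30.9 in ABpIF/+ mice. ABpIF/F replicates had 8.71, 17.7 and 18.8 CPM, all below the lowest ABpIF/+ mouse and within the Ctrl range. Its log2 fold change was 0.75 in ABpIF/+ vs Ctrl (SE 0.37, edgeR adjusted p = 0.186) and 1.08 in ABpIF/+ vs ABpIF/F (SE 0.48, adjusted p = 0.158). Of its relatives, Pfkfb2 rose in ABpIF/+ livers, from 35.7 CPM in Ctrl to 88.0 CPM (log2 fold change 1.30, SE 0.13, edgeR adjusted p = 5.82e-08), with 38.1 CPM in ABpIF/F livers. Pfkfb1, the liver isozyme, was 1.12 higher on the log2 scale in ABpIF/+ than in ABpIF/F livers. Pfkfb4 rose in ABpIF/F livers, by 1.55 against Ctrl, and was lower in ABpIF/+ than in ABpIF/F livers, at -1.32.

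Ankrd37 (Entrez 654824, chromosome 8, 45996902 to 46005707, minus strand), a small ankyrin repeat protein whose gene is a direct HIF target, had 15 to 62 counts per mouse. Ctrl mice had 0.634 to 1.15 CPM with a median of 0.902, ABpIF/+ mice 0.851 to 1.98 CPM with a median of 1.20, and ABpIF/F replicates 0.783, 0.893 and 0.415 CPM. The groups overlapped, and no comparison was called, with log2 fold changes of 0.47 (SE 0.30), -0.35 (SE 0.38) and 0.83 (SE 0.38) in turn. Ufsp2 and Lrp2bp overlap Ankrd37 on the opposite strand, so at this depth and with the strand setting unstated, part of its counts could come from them.

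The 9 genes were set beside a panel of 55 other HIF targets, of which 43 reached a mean of 1 CPM. In ABpIF/+ vs Ctrl 7 were called up and 5 down, with a median log2 fold change of 0.12, where 17.6% of all genes from 1 CPM were called either way. With the strain label in the model the 12 became 4, Pfkp up and Hk1, P4ha2 and Loxl2 down. Genes of glycolysis stood on both sides. Pfkp, the platelet form of phosphofructokinase, rose from 2.76 to 20.2 CPM (log2 fold change 2.87, SE 0.19, edgeR adjusted p = 1.54e-10), the aldolases Aldoa and Aldoc rose by 1.09 and 1.16, and the glucose transporter Slc2a1 rose by 1.03. The hexokinases Hk1 and Hk2 fell by 1.51 and by 1.60. Trf, the plasma carrier of iron, rose by 1.47. The collagen-modifying genes P4ha2 and Loxl2 fell by 1.25 and by 1.95, beside the stellate marker sums given above. Epo, also called up, had 0 counts in Ctrl and at most 7 in an ABpIF/+ mouse, and Stc2, also called down, had at most 1 count in an ABpIF/+ mouse and 1 to 11 in Ctrl mice, at least 1.94-fold lower against a floor of 3 counts per library.

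In ABpIF/F vs Ctrl 6 genes of the panel were called up and 5 down, with a median of 0.31, where 12.6% of all genes from 1 CPM were called either way. The count of 11 fell to 6, all of them down, with the strain label in the model, to 7 with the clock score and to 3 with the clock component, Pdk1 and Eno1 down and Kdm4b up. Pdk1, the kinase that holds back pyruvate dehydrogenase, fell by 1.76, from 132 to 39.1 CPM, the lipase inhibitor gene Angptl4 fell by 2.94, from 100.2 to 13.0 CPM, and Gbe1, Eno1 and P4ha2 fell by 1.29, 1.14 and 1.16 on the log2 scale. Trf, Pfkp, Pfkfb4 and Pdgfb rose by 1.45, 1.47, 1.55 and 1.84, the glucose transporter Slc2a3 rose from 0.456 to 2.12 CPM, and Epo had at most 10 counts. The summed level of 6 neutrophil markers, cells that express Slc2a3, was 2.51 to 79.5 CPM in ABpIF/F mice against 0.770 to 2.05 CPM in Ctrl mice, and its part in these values was not tested. Trf and Pfkp rose, and P4ha2 fell, in both mutant groups against Ctrl.

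In ABpIF/+ vs ABpIF/F 5 genes of the panel were called up and 12 down, with a median of -0.09, where 12.2% of all genes from 1 CPM were called either way. Aldoa, Ak4, Pdk1, Pfkp and the clock-linked repressor Bhlhe40 were higher in ABpIF/+ livers, by 1.04 to 1.54 on the log2 scale. Hk1, Hk2, Pkm, Slc2a3, Slc16a3, Pfkfb4, Ppp1r3c, Pdgfb, Lox, Loxl2, Tmem45a and Stc2 were lower in ABpIF/+ livers, Pkm at -1.28 and Loxl2 at -2.62. Marker sums moved with them, with stellate sums of 39.9 to 85.3 CPM in ABpIF/+ against 154 to 263 CPM in ABpIF/F mice, macrophage and Kupffer sums of 95.3 to 152 against 175 to 372 CPM, and cholangiocyte sums of 29.9 to 145 against 205 to 1150.3 CPM. Lymphocyte sums were 0.282 to 2.05 against 3.64 to 8.39 CPM, endothelial sums 88.2 to 189 against 211 to 290.1 CPM, and neutrophil sums, which overlapped, 1.94 to 8.18 against 2.51 to 79.5 CPM. The part of these cells in the result was not tested. The count of 17 fell to 8 without ABpIF/F replicate 3, to 11 without ABpIF/+ replicate 5, to 3 with the clock score as a covariate and to 1, Pfkp, with the clock component.

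**Figure D5:**
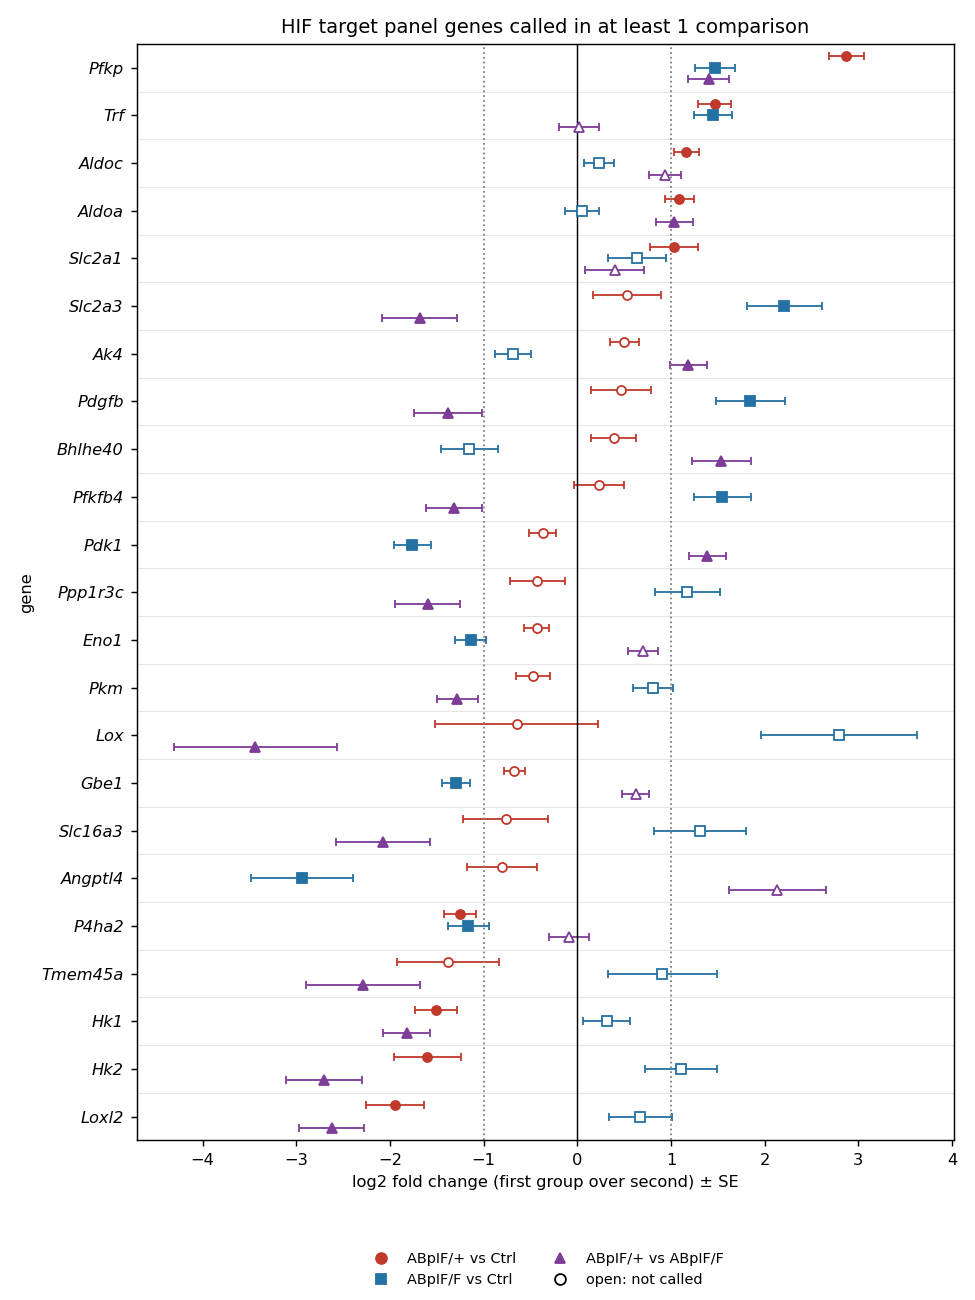
Log2 fold change (x axis, first group over second, ± SE) in the 3 comparisons (colours and shapes) of 23 HIF target panel genes called in at least 1 of them, filled where called, with dotted lines at the 2-fold threshold. Epo and Stc2 are left out for having 3 or fewer counts in every mouse of a group. Pfkp lies right of the threshold in all 3 comparisons, and Hk1, Hk2 and Loxl2 lie left of it in ABpIF/+ against either group.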

How the data were processed

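Liver RNA of 15 mice was sequenced by the authors as stranded, paired-end mRNA libraries. Reads were checked with FastQC, aligned to mm10 (GRCm38) with HISAT2 (version 2.21 in the submitters' processing notes) and counted with featureCounts 2.0.8. The annotation and strand setting of the counting are not given in the sources used here. The deposited values are raw counts per gene, without normalization, with 15 columns of which each is 1 mouse, although 23 samples are listed, 8 mice being named by 2 samples. A second deposited table holds the same counts for 10 mice. Its other 5 count columns are headed by bare numbers and were not used, nor were its columns of the authors' own comparisons (fold changes and p-values). Groups came from the genotype labels and columns were matched by mouse name.

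Counts were fitted by edgeR 4.0.16 under R 4.3.3, keeping all 27179 genes, with TMM scaling, robust dispersions and 1 quasi-likelihood model of 3 groups in the form of edgeR 3.36, which the study used. P-values were adjusted by Benjamini-Hochberg over all genes. This fit called 1275 genes up and 1454 down in ABpIF/+ vs Ctrl. In each comparison its counts were higher than those the study reports at the same thresholds, and the cause was not tested. SE are the log2 fold change over the root of F, and intervals are 2 SE. With 3 to 6 mice a group, precision is set by the spread between mice, and counts of 24742910 or more per mouse leave few counts on genes under 1 CPM. The script was tested on simulated data.

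The 9 genes and the lists were chosen with earlier results of these data known. Named are the 9 genes, Icmt, called genes, subunits and hydroxylases of the HIF lists, the 3 genes of smallest p of other lists, and the 5 genes nearest to Hif3a. Called genes of 2 lists that are counted but not named are not reported here. Bnip3l, Fkbp5, Per1, Tat and Tsc22d3 stand as examples of their lists. Cholangiocyte, Kupffer, lymphocyte, red cell and proliferation marker lists were summed as well. Gene positions and exon lengths came from GENCODE on GRCm38 and start windows from RefSeq. Alternatives were RLE size factors, DESeq2 1.42.0, filterByExpr, the edgeR 4 method, no robust estimation, only the groups compared, other thresholds, the strain label or a clock gene score as a covariate, and leaving out each mouse. The clock component was added after seeing the data.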

Additional observations from a re-analysis of the deposited data

Results flagged for a closer look

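Of 18 sets of 6 mice (9 genes in Ctrl and in ABpIF/+), 3 had 1 mouse whose gap to the next was large against the range of its group by Dixon's test, where chance flags about 1 in 20 groups. ABpIF/+ replicate 1 had 4.11 CPM of Hif3a, the others 0.544 to 1.62. ABpIF/+ replicate 5 had 1.98 CPM of Ankrd37, the others 0.851 to 1.25. Ctrl replicate 1 had 33.3 CPM of Ndrg1, the others 8.65 to 17.4.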

How the results depend on the processing

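Bnip3 and Egln3 kept their calls in every alternative run, and over the 9 genes and 3 comparisons 272 of 297 results under other settings and 393 of 405 with 1 mouse left out kept direction and side of the threshold. No paired analysis was possible because the count columns carry no replicate numbers that pair mice of different genotypes. Of the 9 genes, the count called in ABpIF/F vs Ctrl was 2 by DESeq2 and 2 with no fold threshold, and 1 to 2 with a mouse left out (2 without Ctrl replicate 1). In ABpIF/+ vs ABpIF/F it was 1 with the clock score or the clock component as covariate, and 2 to 3 with a mouse left out. Of the HIF pathway list, 7 were called in ABpIF/+ vs Ctrl with no fold threshold, 1 in ABpIF/F vs Ctrl with the clock component, and in ABpIF/+ vs ABpIF/F 1 with the clock score, 0 with the clock component and 1 to 4 with a mouse left out (1 without ABpIF/F replicate 3). Of the target panel, 19 were called in ABpIF/+ vs Ctrl with no fold threshold and 4 with the strain label. In ABpIF/F vs Ctrl 6 were called with the strain label, 7 with the clock score and 3 with the clock component, and 8 to 15 with a mouse left out. In ABpIF/+ vs ABpIF/F 11 were called with only the groups compared, 3 with the clock score, 1 with the clock component and 8 to 16 with a mouse left out.

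Uncalled log2 fold changes turned sign as follows. With the strain label, Hif1a and Vegfa were 0.047 and 0.28 in ABpIF/+ vs Ctrl and Hif1a 0.021 in ABpIF/F vs Ctrl. In ABpIF/F vs Ctrl, Hif3a and Hif1a were 0.86 and 0.030 with the clock score, and Hif3a, Hif1a and Pfkfb3 2.27, 0.19 and 0.36 with the clock component. In ABpIF/+ vs ABpIF/F, Hif1a, Vegfa and Adm were -0.43, -0.0097 and 0.43 with the clock score, and -0.58, -0.073 and 0.25 with the clock component. With a mouse left out, Hif3a in ABpIF/F vs Ctrl ran from -1.04 to 0.22 (0.18 without Ctrl replicate 3), Vegfa in ABpIF/+ vs Ctrl from -0.12 to 0.032, and in ABpIF/+ vs ABpIF/F Egln3 ran from -0.089 to 0.12 (-0.014 without ABpIF/F replicate 1), Adm from -0.55 to 0.46 (0.0093 and 0.0065 without ABpIF/+ replicates 3 and 5) and Hif1a from -0.0054 to 0.06. The cause was not tested. Hif3a, Adm and Ankrd37 rest on few counts in some or all mice, which widens their intervals.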
